A study of Callithrix jacchus with 5 samples.

Results

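Solute carriers are membrane proteins that move small molecules and ions across the plasma membrane and the membranes of organelles, without hydrolysing ATP themselves. They are sorted into numbered SLC families by sequence, with the organic anion transporters carrying SLCO symbols, and members of 1 family often share a substrate class. Many are exchangers or use the sodium or proton gradient, so their names cover nutrients (amino acids, sugars, vitamins), metals, mitochondrial metabolites, neurotransmitters and inorganic ions. In cultured pluripotent cells they carry the glucose, amino acids and one-carbon donors that proliferation draws on. In fibroblasts they serve also matrix synthesis, which consumes glycine, proline, sulfate and nucleotide sugars. The roles given below are those known from human and rodent proteins.

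The genes described are the gene identifiers whose symbol begins with SLC and a digit, or with SLCO, apart from SLC39A4 and SLC2A1, and which reached 10 counts in at least 1 library. They number 279 of 30811 identifiers in the count table, of which 12660 have a symbol in the name table used. A further 29 such symbols stayed below that limit. SLC10A1, SLC17A1, SLC5A11 and SLC6A13 lay just inside it with a highest count of 10, and SLC4A10, SLC52A1 and SLC6A18 just outside with 8. SLC2A4RG, SLC4A1AP and SLC7A6OS share the prefix but are a transcription factor for SLC2A4, a binding partner of SLC4A1 and a neighbour on the opposite strand of SLC7A6, and are counted as members by symbol alone. Carriers without a symbol match, such as SLC16A1 and the ADP/ATP carriers SLC25A4, SLC25A5 and SLC25A6, are not analysed here.

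The RNA came from cultured common marmoset (Callithrix jacchus) cells in 5 sequencing libraries. These were 1 of fibroblasts (E01F, P number 1 in its title), 1 of induced pluripotent stem (iPS) cells made with RNA-delivered factors, and 3 of embryonic stem (ES) cells. The ES libraries are from the lines No40 (P number 63), DSY127 (17) and No20 (45), called ES lines 1, 2 and 3 here. The labels give no sex, age, culture medium or clone, and do not say whether the iPS cells derive from the fibroblasts sequenced. The fibroblast and iPS groups have 1 library each, so both comparisons with the ES lines borrow their error from the spread of the 3 lines. That spread is between lines, and nothing in the labels describes repeat cultures of a line.

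Total counts were 58601185 in the fibroblast library, 5746449 in the iPS library, and 34111715 to 46523012 in the ES lines. The markers of the labelled cell types followed the labels: all 7 pluripotency markers fell in the fibroblast library and 9 of 10 measured fibroblast markers rose. The fibroblast markers summed to 79386 CPM (counts normalised to library depth with TMM factors) in fibroblasts and 11260 CPM in iPS cells, against 1512 to 2679 CPM in the ES lines. COL1A2 and PRRX1 passed as higher in the iPS library, while DCN was at 6.59 CPM there against 11.2 ± 1.93 CPM in the ES lines (SD, n = 3). Muscle markers rose in the fibroblast library, 5 of 5, but at unlike levels. ACTA2 stood at 2733 CPM in fibroblasts against 28.7 ± 20.8 CPM over the ES lines, and CNN1 at 265 CPM in fibroblasts. MYOD1, MYOG and TTN reached only 1.28, 2.1 and 7.25 CPM in the fibroblast library. All 5 epithelial and 4 of 5 endothelial markers fell there, and of 4 endoderm markers FOXA2, GATA4 and HNF4A had no count there while GATA6 stood at 37.6 CPM in fibroblasts against 48.2 ± 37.7 CPM over the ES lines (adjusted p = 0.803). Of the 3 trophoblast and amnion markers matched, TFAP2A stood at 235 CPM in the iPS library against 7.5 ± 3.7 CPM in the ES lines, and CDX2 and CYP19A1 had no count there. Their part in the carrier results was not tested, and in bulk RNA fewer cells of a type and less RNA per cell cannot be told apart.

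Together the 279 genes took 0.846% of the counts of the fibroblast library and 0.892% of those of the iPS library, against 1.18%, 1.06% and 0.923% in ES lines 1, 2 and 3. At least 1 count was seen for 253 of them in the fibroblast library and 255 in the iPS library, against 276 to 278 in the ES lines. At 5 CPM or more stood 154 in the fibroblast library and 159 in the iPS library, against 157 to 169 in the ES lines. A count of 3 corresponds to 0.063 CPM in the fibroblast library, 0.507 CPM in the iPS library and 0.061 to 0.0834 CPM in the ES lines, so low carriers are least well seen in the iPS library.

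Levels of different genes are comparable per length, as CPM per kilobase of the exon length in the files. On that scale SLC25A3, the mitochondrial phosphate carrier that feeds ATP synthase, led the carriers in each group, at 325 in the fibroblast library and 344 in the iPS library, against an ES mean of 416 CPM per kilobase. In the fibroblast library it was followed by SLC38A2 (255), a sodium-coupled neutral amino acid transporter, SLC3A2 (143), SLC7A5 (122) and SLC39A7 (108 CPM per kilobase). SLC3A2 is the heavy chain and SLC7A5 a light chain of the leucine transporter LAT1, and SLC39A7 releases zinc from the endoplasmic reticulum. In the iPS library the next places went to SLC7A3 (271), a cationic amino acid transporter, SLC25A39 (177), which brings glutathione into mitochondria, SLC7A5 (152) and SLC3A2 (151 CPM per kilobase). In the ES lines they went to SLC25A39 (211), SLC2A3 (196), the neuronal-type glucose transporter GLUT3, SLC7A3 (183) and SLC7A5 (179.8 CPM per kilobase). The order carries no test, and neighbours such as SLC7A3 and SLC7A5 in the ES lines differ by less than the spread between lines.

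The first comparison set the fibroblast library against the ES lines. The carriers that fell included SLC7A3 for cationic and SLC43A2 for branched-chain amino acids, SLC34A2 for phosphate, SLC5A5 for iodide, SLC29A2 for nucleosides and SLC18A2 for monoamines. Those that rose included SLC1A1 for glutamate, SLC16A7 for pyruvate, SLCO2A1 for prostaglandin, SLC9A9 for protons of endosomes and SLC24A3 for calcium. Of the 277 members tested, 26 were higher in fibroblasts and 33 lower (edgeR quasi-likelihood test, Benjamini-Hochberg adjusted p under 0.05 over 17462 genes), or 9.39% and 11.9%. Over all genes tested the shares called were 8.8% higher and 9.28% lower, 18.1% in all, or 20.2% among genes with a symbol. The share of carriers called, 21.3%, is near that background. The members' median log2 fold change was -0.17, beside -0.15 over the whole table. It was the same with the 24 members that had no fibroblast count set at their bounds, or at no change where there was no bound. The median of the whole table had no such replacement. SLC25A34 and SLC9A4 were too low to be tested. The fibroblast value lay outside the range of the 3 ES lines for all 59 called members, which the call largely fixes. Among those lower, 32 of 33 were at least 4-fold apart and the median log2 fold change was -4.82. Of those higher 16 of 26 were, and the median was 2.38. The call itself selects for size, and the same figures over all called genes were not computed, so this is no trait of carriers. Some of the falls had no fibroblast count, and their fitted size rests on the fit.

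The counts depended on which ES lines were used: 10 higher and 12 lower without ES line 1, 19 and 29 without ES line 2, and 35 and 58 without ES line 3. The share of all genes called moved with them, to 10.2% without ES line 1, 16.3% without ES line 2 and 26.5% without ES line 3. DESeq2 called 33 carriers higher and 66 lower, where it called 26.8% of all genes. Scaling by total counts without TMM factors moved the median of the whole table by -0.38 on the log2 scale and left 17 higher and 38 lower, beside 17.6% of all genes called. With upper-quartile factors 17.5% of all genes were called. Counts of role groups under these settings, given below, are to be read beside these shares. Values below as x ± y are the mean and SD of the 3 ES lines (n = 3). The ± after a log2 fold change is an approximate standard error. It is the size of the change over the square root of the test's F statistic, so it is no independent measure of precision.

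**Figure D1:**
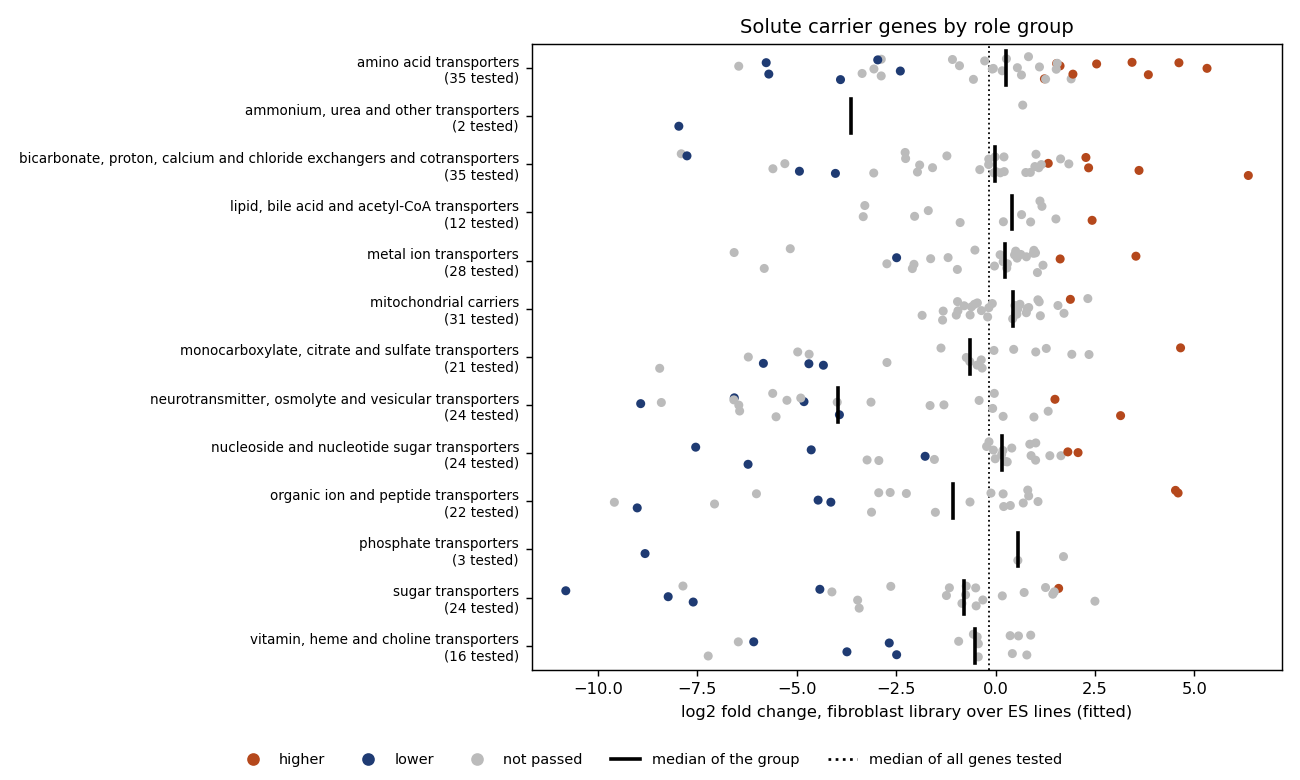
Fitted log2 fold change of the fibroblast library over the ES lines (horizontal axis) for the 277 solute carrier genes tested, by role group (vertical axis). Each point is 1 gene, coloured by its call; thick bars are group medians and the dotted line is the median of all genes tested, -0.15. Points far to the left include genes with no count in the fibroblast library, whose position rests on the fit.

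The 12 carriers with the largest rises and the 12 with the largest falls, at 5 CPM or more in the higher group, differed in how evenly the ES lines expressed them. SLC9A9, a sodium/proton exchanger of endosomes, rose most, to 77.5 CPM in fibroblasts, against 1.02, 0.64 and 1.17 CPM in ES lines 1, 2 and 3 (log2 fold change 6.36 ± 0.50, adjusted p = 0.00158). SLC1A1, a transporter of glutamate and cysteine, reached 34.95 CPM in fibroblasts, against 1.04, 0.64 and 0.938 CPM in ES lines 1, 2 and 3 (log2 fold change 5.32 ± 0.54, adjusted p = 0.00265). Both were low in all 3 lines, with no overlap. SLC16A7, the high-affinity pyruvate transporter MCT2, reached 34.9 CPM in fibroblasts, against 1.79, 2 and 0.366 CPM in ES lines 1, 2 and 3 (log2 fold change 4.65 ± 0.83, adjusted p = 0.0132). SLCO2A1, the prostaglandin transporter, reached 16.6 CPM in fibroblasts, against 0.325, 1.39 and 0.457 CPM in ES lines 1, 2 and 3 (log2 fold change 4.52 ± 0.85, adjusted p = 0.0157). For these 2 genes the lines themselves were several-fold apart, with ES line 3 lowest for SLC16A7 and ES line 2 highest for SLCO2A1. The call was lost for SLC16A7 and SLCO2A1 without ES line 1.

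At the other end, SLC34A2, a sodium-phosphate cotransporter of epithelia, fell to 0.168 CPM in fibroblasts, against 36.5, 149 and 45.9 CPM in ES lines 1, 2 and 3 (log2 fold change -8.81 ± 1.37, adjusted p = 0.00861). SLC35G2, a member of the nucleotide sugar transporter family without a settled substrate, fell to 0.336 CPM in fibroblasts, against 26.4, 26.9 and 22.7 CPM in ES lines 1, 2 and 3 (log2 fold change -6.22 ± 0.65, adjusted p = 0.0028). SLC35G2 was the more even of the pair across the lines, while ES line 2 stood above the others for SLC34A2. SLC5A5, the sodium-iodide symporter known from the thyroid, had no fibroblast count and 9.33, 7.62 and 1.42 CPM in ES lines 1, 2 and 3. With 3 fibroblast counts taken as the floor, it was at least 97.1-fold lower than the ES mean (adjusted p = 0.0206), or 71.7-fold with ES line 1 left out. Not past the threshold were SLC5A5 without ES line 1 or with limma voom. In the coordinates of the files, on a genome build not given in the sources used here, the extremes lie with SLC9A9 (ENSCJAG00000001617) at 32840764 to 33437227 on chromosome 17, SLC1A1 (ENSCJAG00000011113) at 106236409 to 106326940 on chromosome 1, SLC34A2 (ENSCJAG00000013366) at 165434895 to 165459970 on chromosome 3 and SLC35G2 (ENSCJAG00000002492) at 39654235 to 39685619 on chromosome 17.

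**Figure D2:**
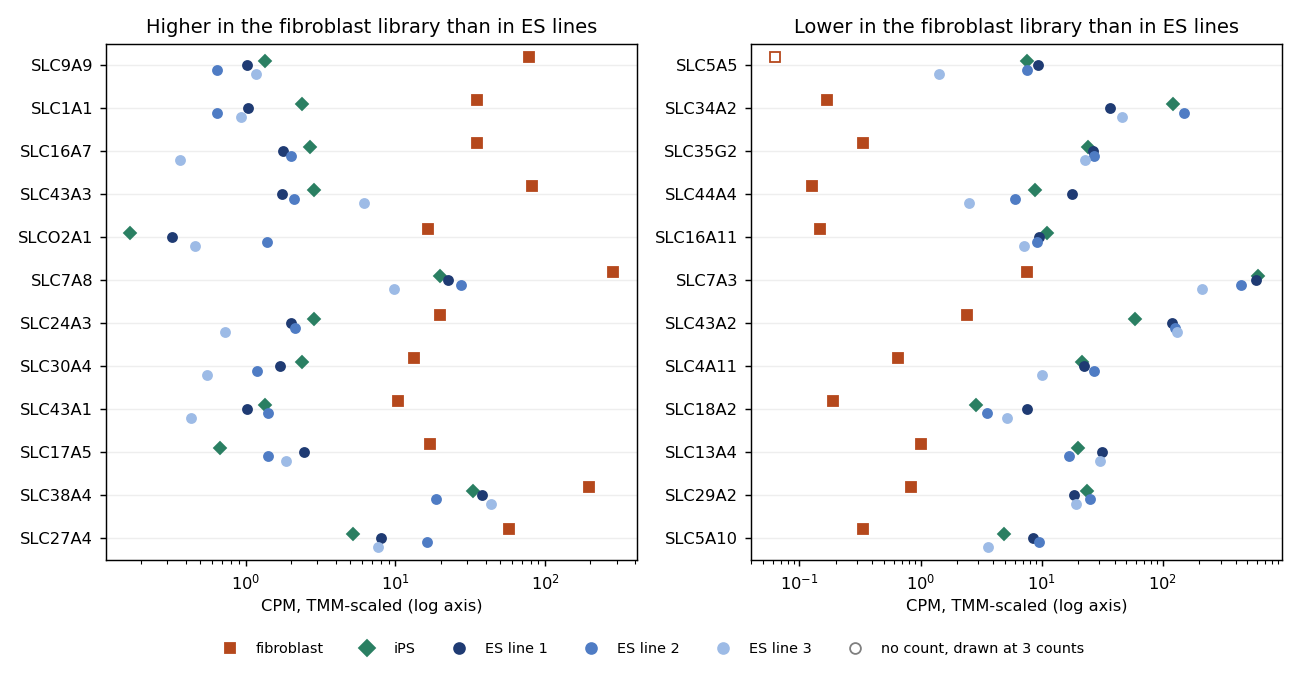
TMM-scaled CPM in each library (horizontal log axis) of the 12 solute carrier genes with the largest rises (left) and the 12 with the largest falls (right) in the fibroblast library among called genes at 5 CPM or more. Squares are the fibroblast library, diamonds the iPS library and circles the 3 ES lines; open symbols had no count and are drawn at 3 counts. The fibroblast squares lie outside the range of the ES circles in every row, at 77.5 CPM for SLC9A9 and 0.168 CPM for SLC34A2.

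Amino acid transporters gave the most calls: of 35 tested, 9 rose and 5 fell, or 40% called beside 18.1% of all genes, with a median log2 fold change of 0.27. The grouping is by family number, and 1 of the 9, SLC43A3, carries purine nucleobases rather than amino acids. SLC7A6OS, which is not a carrier, is also counted among the 35 by its symbol. Without ES line 1 the counts were 5 and 2, and without ES line 3 they were 10 and 7. The light chains that pair with SLC3A2 went different ways. SLC7A8, the LAT2 light chain for small and large neutral amino acids, rose in fibroblasts, with 284 CPM in fibroblasts and 19.8 CPM in iPS cells, against 22.4, 27.3 and 9.72 CPM in ES lines 1, 2 and 3 (log2 fold change 3.84 ± 0.52, adjusted p = 0.00556 for fibroblasts). SLC7A5, the LAT1 light chain, stood at 159 CPM in fibroblasts and 197 CPM in iPS cells, against 238, 311 and 153 CPM in ES lines 1, 2 and 3 (adjusted p = 0.44). SLC3A2 itself stood at 345 CPM in fibroblasts and 363 CPM in iPS cells, against 407, 580.5 and 262 CPM in ES lines 1, 2 and 3 (adjusted p = 0.725). The fibroblast values of SLC7A5 and SLC3A2 lay within the range of the ES lines. SLC7A7 and SLC7A10, light chains for cationic and for small neutral amino acids, fell, to 2.98 CPM in fibroblasts against 15.7 ± 3.41 CPM over the ES lines and 0.924 CPM in fibroblasts against 13.8 ± 5.25 CPM over the ES lines (log2 fold changes -2.39 and -3.90). SLC7A11, which exchanges cystine for glutamate, stood at 33.3 CPM in fibroblasts, against 9.14, 22.4 and 10.2 CPM in ES lines 1, 2 and 3 (adjusted p = 0.189), and its levels in the ES lines were spread by more than 2-fold. The threshold was missed by SLC7A7 and SLC7A10 without ES line 1, and by SLC7A7 without ES line 2.

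Among the transporters of arginine and lysine that work without a heavy chain, SLC7A3 (CAT3) fell in fibroblasts, with 7.62 CPM in fibroblasts and 615 CPM in iPS cells, against 588, 446 and 211 CPM in ES lines 1, 2 and 3 (log2 fold change -5.77 ± 0.80, adjusted p = 0.00605 for fibroblasts). It was high in the iPS library and every ES line, and ES line 3 held the lowest of these. Its relatives SLC7A1 (CAT1) and SLC7A2 (CAT2) did not pass: SLC7A1 stood at 88.3 CPM in fibroblasts, against 75.2, 48.4 and 57.4 CPM in ES lines 1, 2 and 3 (adjusted p = 0.358). SLC7A2 stood at 5.84 CPM in fibroblasts, against 8.09, 6.34 and 4.12 CPM in ES lines 1, 2 and 3 (adjusted p = 0.945). SLC7A4, a relative without a settled substrate, fell (log2 fold change -2.96). The SLC43 family also divided. SLC43A2 (LAT4), a sodium-independent transporter of branched-chain amino acids, fell in fibroblasts, with 2.42 CPM in fibroblasts and 58.7 CPM in iPS cells, against 120.3, 126 and 130.5 CPM in ES lines 1, 2 and 3 (log2 fold change -5.70 ± 0.48, adjusted p = 0.00172 for fibroblasts), and its 3 ES values were close together. SLC43A1 (LAT3), with similar substrates, rose to 10.3 CPM in fibroblasts, against 1.02, 1.42 and 0.435 CPM in ES lines 1, 2 and 3 (log2 fold change 3.43 ± 0.76, adjusted p = 0.0254). SLC43A3, a purine nucleobase transporter despite its family, rose to 81.7 CPM in fibroblasts, against 1.75, 2.11 and 6.15 CPM in ES lines 1, 2 and 3 (log2 fold change 4.61 ± 0.70, adjusted p = 0.00788), and its exons overlap those of another gene on the same strand, so reads may be shared. Calls ended for SLC7A4 and SLC43A1 without ES line 1, and for SLC7A4 without ES line 2.

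**Figure D3:**
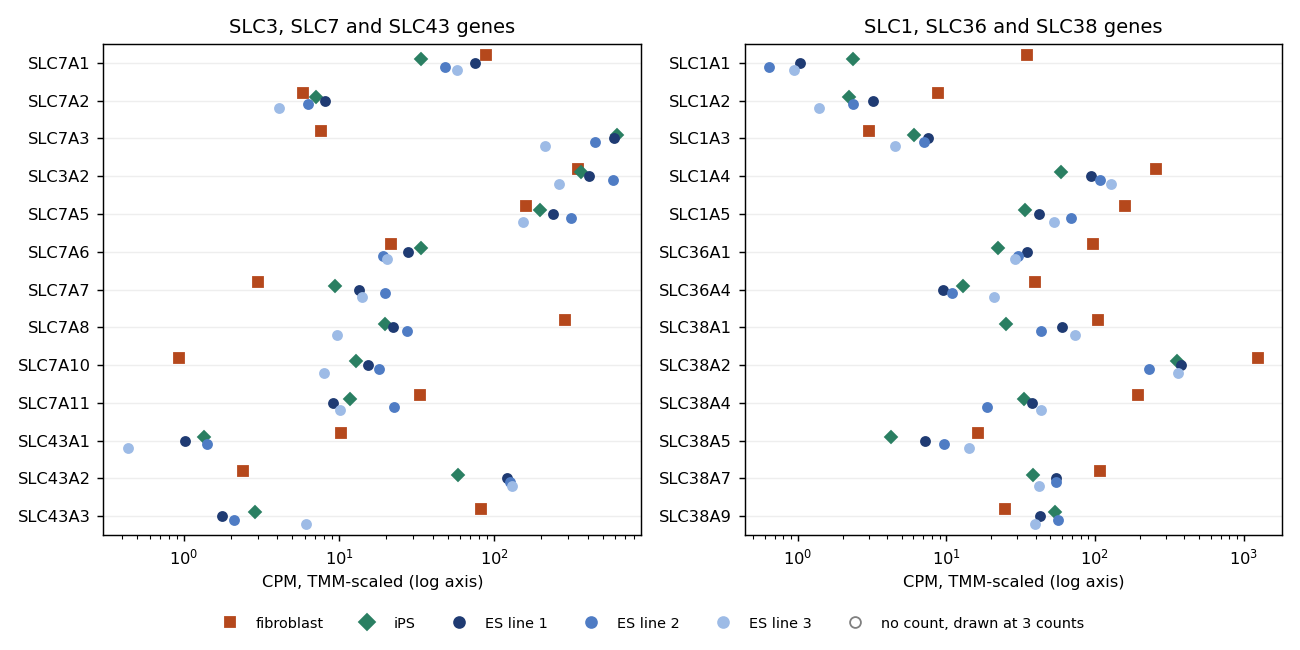
TMM-scaled CPM in each library (horizontal log axis) of 13 genes of the SLC3, SLC7 and SLC43 families (left) and 13 of the SLC1, SLC36 and SLC38 families (right). Squares are the fibroblast library, diamonds the iPS library and circles the ES lines. SLC7A3 and SLC43A2 have the fibroblast square far left of the rest, SLC7A8 and SLC43A3 far right, while SLC3A2 and SLC7A5 show it beside the ES circles.

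Apart from the glutamate transporter SLC1A1, described above, neutral amino acid carriers coupled to sodium or protons made up the rest of the rises. SLC38A2 (SNAT2), which is induced by amino acid shortage, reached 1251 CPM in fibroblasts, against 379, 232 and 363 CPM in ES lines 1, 2 and 3 (log2 fold change 1.95 ± 0.36, adjusted p = 0.0146). SLC38A4, which also carries cationic amino acids, reached 195 CPM in fibroblasts, against 37.95, 18.8 and 43.6 CPM in ES lines 1, 2 and 3 (log2 fold change 2.54 ± 0.47, adjusted p = 0.0146). In both the fibroblast value was above every line. SLC1A5 (ASCT2), the glutamine exchanger, reached 158 CPM in fibroblasts against 54.6 ± 13.2 CPM over the ES lines and SLC1A4 (ASCT1), an exchanger of serine and alanine, 257 CPM in fibroblasts against 109.8 ± 17.2 CPM over the ES lines (log2 fold changes 1.54 and 1.23). SLC36A1, which exports amino acids from lysosomes with protons, reached 96.5 CPM in fibroblasts against 31.4 ± 3.01 CPM over the ES lines (log2 fold change 1.62). SLC38A1 (SNAT1) stood at 105 CPM in fibroblasts, against 60.2, 43.5 and 73.5 CPM in ES lines 1, 2 and 3 and did not pass (adjusted p = 0.195). Of the 7 SLC1 genes 3 rose and none fell, and of the 9 SLC38 genes 2 rose and none fell. Called were 42.9% and 22.2%, beside 18.1% of all genes. The call was lost for SLC38A4, SLC1A5 and SLC1A4 without ES line 1, for SLC1A4 without ES line 2 or with limma voom, for SLC1A5, SLC1A4 and SLC36A1 on total counts, and for SLC1A5 and SLC1A4 with upper-quartile factors.

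Of 24 neurotransmitter, osmolyte and vesicular transporters (SLC6, SLC17 and SLC18), 2 rose and 4 fell, or 25% called beside 18.1% of all genes. Their median log2 fold change was -3.95, or -2.24 with the 6 that had no fibroblast count set at their bounds, or at no change where there was no bound. SLC17A6, the vesicular glutamate transporter VGLUT2, stood at 0.042 CPM in fibroblasts, against 2.28, 6.67 and 3.98 CPM in ES lines 1, 2 and 3 (adjusted p = 0.017). With 2 fibroblast counts the fall was 103-fold (exact Poisson 95% interval 28.4 to 847). SLC18A2, which loads monoamines into vesicles, stood at 0.189 CPM in fibroblasts, against 7.56, 3.53 and 5.15 CPM in ES lines 1, 2 and 3 (log2 fold change -4.82, adjusted p = 0.0209). Both were low everywhere and lowest in the fibroblast library. SLC6A4, the serotonin transporter, fell to 1.81 CPM in fibroblasts against 27.5 ± 16.5 CPM over the ES lines (log2 fold change -3.93), and SLC6A20, a proline and imino acid transporter without a fibroblast count, was lower by at least 26.3-fold (16.3-fold with ES line 1 left out). SLC17A5 (sialin), which exports sialic acid from lysosomes, rose to 16.9 CPM in fibroblasts, against 2.46, 1.42 and 1.85 CPM in ES lines 1, 2 and 3 (log2 fold change 3.14 ± 0.59, adjusted p = 0.0153). SLC6A9, the glycine transporter GLYT1, rose to 34.7 CPM in fibroblasts against 12.3 ± 1.72 CPM over the ES lines (log2 fold change 1.49). Not past the threshold were SLC18A2, SLC6A4, SLC6A20 and SLC6A9 without ES line 1, SLC6A9 without ES line 2 or on total counts or with upper-quartile factors or in the fit of the 2 groups alone, and SLC17A6, SLC6A4 and SLC6A20 with limma voom. Without ES line 1 this group held 1 rise and 1 fall, and without ES line 3 it held 2 and 9.

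Of 24 genes of the sugar-named families (SLC2, SLC5, SLC37, SLC45 and SLC50), 4 fell and 1 rose, or 20.8% called beside 18.1% of all genes. All 4 falls were in the sodium-coupled SLC5 family. Besides SLC5A5, SLC5A8 (a monocarboxylate transporter) and SLC5A1 (the intestinal glucose transporter SGLT1) had no fibroblast count. Their falls were at least 16.3-fold for SLC5A8 (14.9-fold with ES line 1 left out) and 10.5-fold for SLC5A1 (8.06-fold with ES line 2 left out). In ES lines 1, 2 and 3 SLC5A8 had 1.2, 1.17 and 0.709 CPM and SLC5A1 had 0.65, 0.973 and 0.366 CPM. SLC5A10, a mannose and fructose transporter whose exons overlap 2 genes on the opposite strand, fell to 0.336 CPM in fibroblasts against 7.25 ± 3.21 CPM over the ES lines (log2 fold change -4.42). The facilitative glucose transporter SLC2A3 stood at 36.9 CPM in fibroblasts and 219.9 CPM in iPS cells, against 768, 309.8 and 114 CPM in ES lines 1, 2 and 3. The fibroblast value was below every line, but the lines were 6.72-fold apart and the gene did not pass (adjusted p = 0.0788). The single rise in the group was SLC2A4RG, which is not a carrier (92.4 CPM in fibroblasts against 30.7 ± 10.1 CPM over the ES lines, log2 fold change 1.59). The threshold was missed by SLC5A8, SLC5A1, SLC5A10 and SLC2A4RG without ES line 1, by SLC5A1 and SLC2A4RG without ES line 2, by SLC2A4RG on total counts or with upper-quartile factors, and by SLC5A8, SLC5A1 and SLC5A10 with limma voom. No gene of this group fell without ES line 1, whereas 9 fell without ES line 3 and 10 with DESeq2. Of all genes, 4.79% fell without ES line 1, 13.8% without ES line 3 and 15.3% with DESeq2.

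Of 21 monocarboxylate, citrate and sulfate transporters, 3 fell and 1, SLC16A7, rose, or 19% called beside 18.1% of all genes. SLC16A11 fell to 0.147 CPM in fibroblasts, against 9.57, 9.09 and 7.11 CPM in ES lines 1, 2 and 3 (log2 fold change -5.84 ± 0.84, adjusted p = 0.00683). SLC16A6, a ketone body transporter, fell to 0.693 CPM in fibroblasts, against 11.7, 15.1 and 15.2 CPM in ES lines 1, 2 and 3 (log2 fold change -4.33 ± 0.69, adjusted p = 0.00899). SLC13A4, a sodium-sulfate cotransporter, fell to 1.01 CPM in fibroblasts, against 31.5, 16.9 and 30.1 CPM in ES lines 1, 2 and 3 (log2 fold change -4.69 ± 0.71, adjusted p = 0.0079). These 3 falls passed in every one of 11 alternative fits. SLC16A3 (MCT4), the lactate exporter of glycolytic cells, stood at 139 CPM in fibroblasts and 168 CPM in iPS cells, against 189.9, 177 and 162 CPM in ES lines 1, 2 and 3 (adjusted p = 0.517). The group's counts were 3 rises and 6 falls without ES line 3, no rise and 3 falls without ES line 1, and 1 rise and 6 falls with DESeq2. None of the 7 SLC26 anion exchangers passed by the edgeR test, beside 18.1% of all genes, and so small a set says little about the family.

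Of 24 nucleoside and nucleotide sugar transporters, 4 fell and 2 rose, or 25% called beside 18.1% of all genes. The equilibrative nucleoside transporters SLC29A2 and SLC29A1 of the plasma membrane were among the falls. SLC29A2 (ENT2) fell to 0.84 CPM in fibroblasts, against 18.5, 25.3 and 19.1 CPM in ES lines 1, 2 and 3 (log2 fold change -4.63 ± 0.64, adjusted p = 0.00575). SLC29A1 (ENT1) fell to 22.7 CPM in fibroblasts, against 71.8, 67.1 and 93.9 CPM in ES lines 1, 2 and 3 (log2 fold change -1.77 ± 0.42, adjusted p = 0.0327). In both the fibroblast value was below every line. SLC35F4, with 1 fibroblast count, fell to 0.021 CPM in fibroblasts against 4.54 ± 2.69 CPM over the ES lines, or by 216-fold (exact Poisson 95% interval 38.8 to 8529). SLC35B3, which carries the sulfate donor PAPS into the Golgi, rose to 32.98 CPM in fibroblasts against 7.83 ± 2.37 CPM over the ES lines, and SLC35A5, a Golgi carrier of UDP-sugars, to 31.99 CPM in fibroblasts against 9.07 ± 1.81 CPM over the ES lines (log2 fold changes 2.07 and 1.82). Calls ended for SLC29A1, SLC35F4, SLC35B3 and SLC35A5 without ES line 1, for SLC29A1, SLC35B3 and SLC35A5 without ES line 2, for SLC35B3 and SLC35A5 on total counts or with upper-quartile factors, and for SLC35F4 with limma voom. The group held no rise and 2 falls without ES line 1, 2 rises and 6 falls without ES line 3, and 3 and 7 with DESeq2.

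Of 35 exchangers and cotransporters of bicarbonate, protons, calcium and chloride, 5 rose and 3 fell, or 22.9% called beside 18.1% of all genes. SLC9A9, described above, was among the rises. Calcium exchangers also rose: SLC8B1, which lets calcium out of mitochondria, to 61.2 CPM in fibroblasts against 12.1 ± 3.5 CPM over the ES lines, and the potassium-dependent SLC24A3 to 19.9 CPM in fibroblasts against 1.63 ± 0.779 CPM over the ES lines (log2 fold changes 2.34 and 3.61). Its relative SLC24A4 had no fibroblast count and was lower by at least 11.7-fold (7.58-fold with ES line 3 left out). SLC12A2 (NKCC1), which loads chloride and sets cell volume, rose to 96.3 CPM in fibroblasts against 38.4 ± 5.7 CPM over the ES lines (log2 fold change 1.33). The SLC4 family has 10 genes here by symbol, among them SLC4A1AP, which is not a carrier. Of these, SLC4A11 fell to 0.651 CPM in fibroblasts against 19.95 ± 8.91 CPM over the ES lines. SLC4A8 fell to 0.987 CPM in fibroblasts against 16.1 ± 12.01 CPM over the ES lines. Their log2 fold changes were -4.93 and -4.03, and no gene of the family rose. The share of the family called was 20%, beside 18.1% of all genes. The call was lost for SLC8B1, SLC24A3, SLC24A4, SLC12A2, SLC4A11 and SLC4A8 without ES line 1, for SLC24A4 and SLC12A2 without ES line 2, for SLC12A2 on total counts or with upper-quartile factors, and for SLC24A4, SLC12A2 and SLC4A8 with limma voom. Without ES line 1 the group held 2 rises and no fall, and with DESeq2 7 falls.

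Metal ion transporters gave 3 calls among 28, or 10.7% beside 18.1% of all genes. The calls were 7 with DESeq2, 6 without ES line 3, and 2 when either of the other lines was left out. SLC39A10 (ZIP10), a plasma membrane zinc importer, fell to 56.3 CPM in fibroblasts, against 404, 262 and 281 CPM in ES lines 1, 2 and 3 (log2 fold change -2.49 ± 0.45, adjusted p = 0.0132). SLC30A4 (ZnT4), which moves zinc into vesicles, rose to 13.3 CPM in fibroblasts, against 1.71, 1.2 and 0.549 CPM in ES lines 1, 2 and 3 (log2 fold change 3.53 ± 0.72, adjusted p = 0.0202). SLC39A13 (ZIP13), an intracellular zinc transporter whose loss disturbs connective tissue, rose to 42.9 CPM in fibroblasts, against 15.7, 12.8 and 13.2 CPM in ES lines 1, 2 and 3 (log2 fold change 1.62 ± 0.41, adjusted p = 0.037). The zinc exporter SLC30A1 stood at 24.2 CPM in fibroblasts against 34.7 ± 12.3 CPM over the ES lines and the zinc and manganese importer SLC39A8 at 49.1 CPM in fibroblasts against 42.9 ± 23.2 CPM over the ES lines, and neither passed (adjusted p = 0.523 and 0.847). SLC40A1 (ferroportin), the iron exporter, stood at 23.8 CPM in fibroblasts and 1.18 CPM in iPS cells, against 6.52, 19.3 and 8.62 CPM in ES lines 1, 2 and 3 and did not pass either (adjusted p = 0.317). Not past the threshold were SLC39A13 without ES line 1 or without ES line 2 or on total counts or with upper-quartile factors.

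Mitochondrial carriers (SLC25) gave 1 call among 31 tested, or 3.23% beside 18.1% of all genes. SLC25A24, which exchanges ATP-magnesium for phosphate, rose to 219 CPM in fibroblasts, against 45.6, 58.01 and 74.8 CPM in ES lines 1, 2 and 3 (log2 fold change 1.88 ± 0.37, adjusted p = 0.0172) and passed in every one of 11 alternative fits. SLC25A3 stood at 661 CPM in fibroblasts, against 773, 904 and 857 CPM in ES lines 1, 2 and 3 (adjusted p = 0.475). SLC25A39 stood at 136 CPM in fibroblasts, against 363, 376 and 277 CPM in ES lines 1, 2 and 3 (adjusted p = 0.0547), below every line, and SLC25A1, the citrate exporter, at 166 CPM in fibroblasts against 228 ± 17.7 CPM over the ES lines (adjusted p = 0.375). With total counts alone or upper-quartile factors 2 mitochondrial carriers fell, as 2 did with DESeq2, and without ES line 3 there were 2 rises and 1 fall. The group's median log2 fold change was 0.43, and missing the threshold does not show that levels were alike.

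The remaining role groups were smaller. Of 22 organic ion and peptide transporters, SLCO2A1 and SLC22A4, which carries ergothioneine, rose, and SLCO4A1, a thyroid hormone transporter, SLCO4C1 and the peptide transporter SLC15A2 fell. The share called was 22.7%, beside 18.1% of all genes. SLCO4A1 stood at 3.97 CPM in fibroblasts, against 54.8, 66.1 and 89.3 CPM in ES lines 1, 2 and 3 (log2 fold change -4.14 ± 0.55, adjusted p = 0.00515), and an exon of it overlaps a gene on the opposite strand. SLC22A4 stood at 4.1 CPM in fibroblasts, against 0.122, 0.222 and 0.16 CPM in ES lines 1, 2 and 3 (log2 fold change 4.59 ± 0.80, adjusted p = 0.0118). SLC15A2 had no fibroblast count and was at least 27.9-fold lower (25.4-fold with ES line 3 left out). Of 16 vitamin, heme and choline transporters, 4 fell and none rose, or 25% called beside 18.1% of all genes. SLC46A1, the proton-coupled folate transporter, fell to 12.1 CPM in fibroblasts, against 48.8, 76.3 and 106 CPM in ES lines 1, 2 and 3 (log2 fold change -2.67 ± 0.58, adjusted p = 0.0243), whereas SLC19A1, the reduced folate carrier, stood at 11.4 CPM in fibroblasts against 6.58 ± 0.458 CPM over the ES lines (adjusted p = 0.344). The lysosomal SLC46A3 and the choline transporter-like genes SLC44A3 and SLC44A4 also fell (log2 fold changes -2.49, -3.74 and -6.08), and SLC44A4 shares exon sequence with an overlapping gene. The threshold was missed by SLCO2A1, SLC22A4, SLCO4C1, SLC15A2, SLC46A3, SLC44A3 and SLC44A4 without ES line 1, by SLCO4C1 and SLC44A3 without ES line 2, and by SLCO4C1, SLC46A3 and SLC44A4 with limma voom. Without ES line 1 the organic ion group held no rise and 1 fall and the vitamin group 1 fall, and without ES line 3 the organic ion group held 2 rises and 6 falls.

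Of 12 lipid, bile acid and acetyl-CoA transporters, SLC27A4, which takes up long-chain fatty acids, rose to 57.3 CPM in fibroblasts, against 7.96, 16.3 and 7.71 CPM in ES lines 1, 2 and 3 (log2 fold change 2.43 ± 0.53, adjusted p = 0.0245). SLC27A4 was the only call of its group, or 8.33% beside 18.1% of all genes. Of 3 phosphate transporters, SLC34A2 alone passed, or 33.3% beside 18.1% of all genes. The ubiquitous SLC20A1 stood at 164 CPM in fibroblasts, against 49.3, 116 and 167 CPM in ES lines 1, 2 and 3 (adjusted p = 0.559) with ES line 1 lowest. The urea transporter SLC14A2, without a fibroblast count, was at least 13.5-fold lower (12.3-fold with ES line 2 left out), with ES values of 0.935, 1 and 0.617 CPM. Calls ended for SLC27A4 and SLC14A2 without ES line 1, and for SLC14A2 with limma voom.

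Genes that work beside the carriers were counted from lists of their own. The share of all genes called, 18.1%, is the background of these counts. Of 13 amino acid response genes, TRIB3, DDIT3 and PYCR1 rose and VLDLR fell, TRIB3 standing at 181 CPM in fibroblasts, against 2.28, 10.3 and 5.76 CPM in ES lines 1, 2 and 3 (log2 fold change 4.90 ± 0.69, adjusted p = 0.0062). Of 14 metal handling genes, STEAP3 rose and TF, STEAP1 and HEPH fell. Of 35 ABC transporters tested, which do hydrolyse ATP, 4 rose and 2 fell, with ABCA6 at 36.99 CPM in fibroblasts against 0.0406, 0.0556 and 0 CPM in ES lines 1, 2 and 3.

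The second comparison set the iPS library against the ES lines. No carrier passed the edgeR test in either direction among 277 tested, and the smallest adjusted p was 0.24, where 0.109% of all genes tested were called (all of them higher). At an unadjusted p under 0.05 there were 5 carriers higher and 11 lower, or 1.81% and 3.97%, beside 5.56% and 3.13% of all genes tested. The median log2 fold change of the 277 was -0.15, beside -0.11 for all genes. It was -0.08 with the 22 carriers that had no iPS count set at their bounds. Where the ES mean was under the floor of 3 counts, no change was entered instead. The median of all genes had no such replacement. DESeq2 called 3 carriers, SLC6A9 and SLC6A6 higher and SLC40A1 lower, which is 1.08% of the members beside 2.29% of all genes, and limma voom none. The iPS library had 5746449 counts against at least 34111715 in each ES line, and the error is again that between the 3 lines. Of 179 carriers at 5 CPM or more in 1 of the 4 libraries, the iPS value lay within the range of the lines for 85, above it for 25 and below it for 69. Over all genes at that level the shares above and below were 23.2% and 32.3%.

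The carriers furthest apart at an unadjusted p under 0.05 included 4 of the SLC6 family, 3 higher in the iPS library and 1, SLC6A15, lower. Of the 15 SLC6 genes tested these are 20% and 6.67%, beside 5.56% and 3.13% of all genes. The family was picked out after its values were seen, and none of its genes passed the edgeR test after adjustment. SLC6A6, the taurine transporter, stood at 135 CPM in iPS cells, against 45.96, 17.8 and 14.5 CPM in ES lines 1, 2 and 3 (log2 fold change 2.37, unadjusted p = 0.007, adjusted p = 0.278). SLC6A9, the glycine transporter, stood at 38.7 CPM in iPS cells, against 10.6, 14.1 and 12.2 CPM in ES lines 1, 2 and 3 (log2 fold change 1.65, unadjusted p = 0.005, adjusted p = 0.24). SLC6A8, the creatine transporter, stood at 171 CPM in iPS cells, against 74.7, 88.9 and 52.01 CPM in ES lines 1, 2 and 3 (log2 fold change 1.25, adjusted p = 0.389). In each the iPS value lay above all 3 lines, and the fibroblast values were 25.6, 34.7 and 140.4 CPM. SLC8A1, the sodium/calcium exchanger of the plasma membrane, stood at 6.59 CPM in iPS cells, against 2.01, 1.72 and 2.93 CPM in ES lines 1, 2 and 3 (adjusted p = 0.565).

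On the other side, SLC40A1, the iron exporter, stood at 1.18 CPM in iPS cells, against 6.52, 19.3 and 8.62 CPM in ES lines 1, 2 and 3 (log2 fold change -3.27, unadjusted p = 0.0123, adjusted p = 0.361). SLC16A14, an orphan of the monocarboxylate family, stood at 1.18 CPM in iPS cells, against 5.1, 4.92 and 13.5 CPM in ES lines 1, 2 and 3 (adjusted p = 0.502). The iPS value was below all lines in both, and each rests on 7 counts in the iPS library. SLC43A2 stood at 58.7 CPM in iPS cells, against 120.3, 126 and 130.5 CPM in ES lines 1, 2 and 3 (log2 fold change -1.10, adjusted p = 0.426). SLC6A15, a neutral amino acid transporter, stood at 7.78 CPM in iPS cells, against 27.04, 18.1 and 49.9 CPM in ES lines 1, 2 and 3 (adjusted p = 0.495). SLC38A1 stood at 25.2 CPM in iPS cells, against 60.2, 43.5 and 73.5 CPM in ES lines 1, 2 and 3 and the zinc importer SLC39A6 at 56.97 against 128 ± 30.99 CPM (adjusted p = 0.511 and 0.508). SLC16A4 had no iPS count and was at least 3.55-fold lower there, with 3 iPS counts as the floor, but only 1.83-fold with ES line 3 left out.

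Values in the iPS library are given side by side for the carriers that separated the fibroblast library from the ES lines, because both comparisons share the ES lines. Over the 26 called higher, the median was 8.37 CPM in the iPS library, 50.1 CPM in fibroblasts and 9.86 CPM for the ES means. Over the 33 called lower, these medians were 11.2, 0.336 and 13.8 CPM. The genes named next are examples chosen after their values were seen. SLC7A3 stood at 615, SLC34A2 at 122, SLC35G2 at 24 and SLC29A2 at 23.8 CPM, against 7.62, 0.168, 0.336 and 0.84 CPM in the fibroblast library. SLC9A9 stood at 1.35, SLC7A8 at 19.8, SLC43A3 at 2.87 and SLC1A1 at 2.37 CPM, against 77.5, 284, 81.7 and 34.95 CPM in the fibroblast library. SLC1A1 was above all 3 ES lines in the iPS library (unadjusted p = 0.0544, adjusted p = 0.584). SLC6A9, described above, stood nearer its fibroblast value than its ES values there, and SLC43A2 lay between the 2. Between the iPS and fibroblast libraries, which have no replicates and therefore no test, 32 of 185 carriers with 5 CPM in either were at least 4-fold higher in the iPS library and 32 at least 4-fold lower. Both shares were 17.3%, beside 12.7% higher and 12.6% lower of all genes at that level.

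The ES lines differed among themselves in some carriers. Of 177 carriers with at least 5 CPM in the highest line, 15 were 4-fold or more apart between the highest and the lowest line, or 8.47%, beside 6.85% of all genes at that level. ES line 3 was the lowest in 12 of the 15 and ES line 1 the highest in 10, beside 55.7% and 32.7% of all genes that far apart. SLC1A6, a glutamate transporter of Purkinje cells, was 28.2-fold apart at 8.35, 14.2 and 0.503 CPM in ES lines 1, 2 and 3. SLC30A2, which loads zinc into secretory vesicles, was 24.1-fold apart at 1.48, 11.04 and 0.457 CPM. The intestinal peptide transporter SLC15A1, SLCO5A1 and the vesicular glutamate transporter SLC17A7 were 17.5-fold, 16.9-fold and 14.1-fold apart, each lowest in ES line 3.

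The fructose transporter SLC2A5 ran the other way, at 0.589, 0.501 and 5.19 CPM, highest in ES line 3, with no iPS count and 5.69 CPM in the fibroblast library. Abundant carriers were also in the set. SLC4A7, a sodium bicarbonate cotransporter, stood at 959, 222 and 119 CPM in ES lines 1, 2 and 3, and at 209.6 CPM in the iPS library. SLC2A3 followed the same order of lines. Neither SLC4A7 nor SLC2A3 passed against the fibroblast library (adjusted p = 0.14 and 0.0788), where they stood at 51.9 and 36.9 CPM. These differences have no test, since each line is 1 library.

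**Figure D4:**
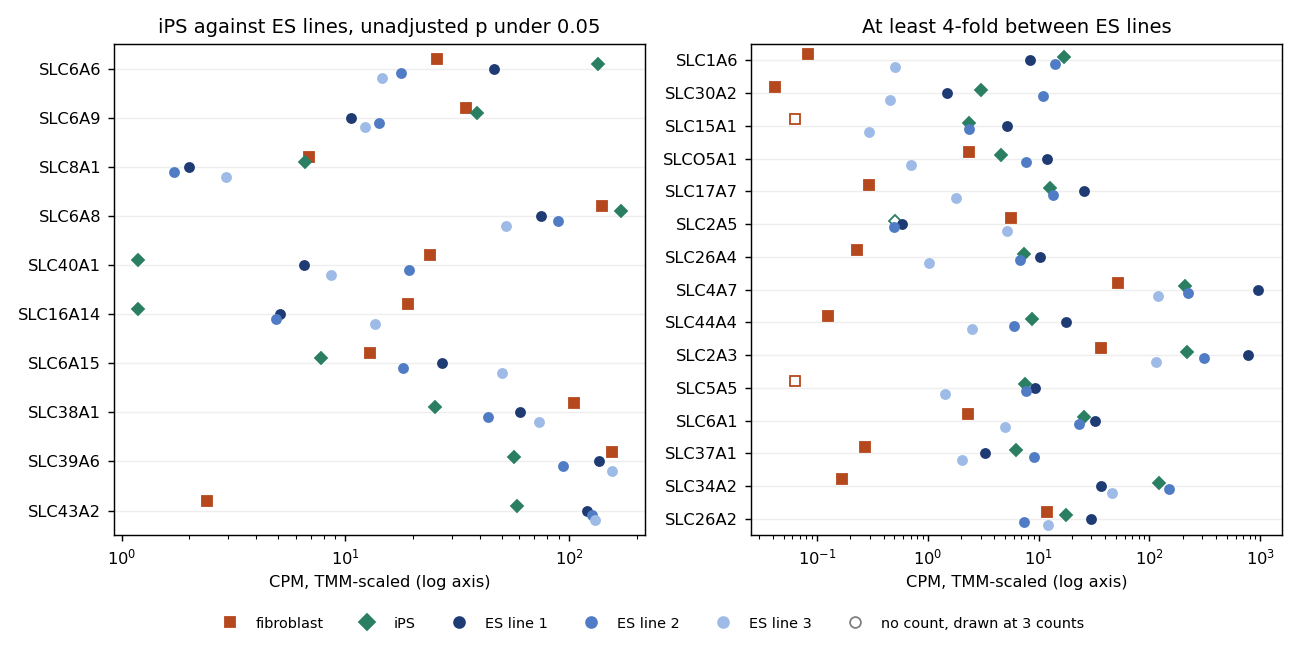
TMM-scaled CPM in each library (horizontal log axis) of the 10 solute carrier genes furthest apart between the iPS library and the ES lines at an unadjusted p under 0.05 and at 5 CPM or more (left), none of which passed after adjustment, and of the 15 genes at least 4-fold apart between ES lines (right). Squares are the fibroblast library, diamonds the iPS library and circles the ES lines; open symbols had no count and are drawn at 3 counts. SLC6A6 has its iPS diamond right of the other symbols of its row, and ES line 3 is the lowest circle in 12 of the 15 rows on the right.

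The mapping of reads limits some of these values. Of the 279 genes, 29 have an exon that overlaps an exon of another gene, 10 on the same strand and 20 on the opposite one, and without stated strand and overlap settings their counts are uncertain to that extent. Leaving those 29 out of the calls already made, the fibroblast comparison held 24 rises and 30 falls. This recount does not show whether reads were shared. Close paralogs with near-identical stretches may likewise share reads.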

How the data were processed

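Raw counts of reads per gene were deposited by the authors as 1 table of the series and again, with the same values, as 5 library files. The submitters' processing notes name STAR 2.5.3a, featureCounts 1.5.2 and Trim Galore 0.4.0, without roles. Build, strand setting and treatment of multi-mapping reads: not given in the sources used here. Symbols came from a gene name table that matched 12660 of 30811 identifiers (41.1%).

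The count model was edgeR 4.0.16 under R 4.3.3. filterByExpr left 17462 genes, scaled with TMM factors. All 5 libraries entered 1 quasi-likelihood fit with the groups as levels, with 2 residual degrees of freedom from the ES lines and a common biological coefficient of variation of 0.458. The fibroblast and iPS libraries were each compared with the ES lines, with Benjamini-Hochberg adjustment across the 17462 genes. Alternatives used RLE, upper-quartile or no factors, other filters, DESeq2 1.42.0, limma 3.58.1 voom, fewer groups, and each ES line left out. Intervals and floors of 3 counts cover counting error only. The steps were tested on simulated data with 100 genes changed at each fold. The fibroblast comparison recovered 18% of 4-fold and 76% of 16-fold changes, with 7 false calls. The iPS comparison recovered 21% and 72%, with 14 false calls. Most 4-fold changes were thus missed in the simulation. The false calls are counted over both folds together. All simulated libraries were drawn from the means and spread of the ES lines, with changes only in genes above 1 CPM there. In the real fibroblast comparison far more genes were called (3157 of 17462), so the recovery in the real data is not known. Members were assigned to 13 role groups by family number. Named genes are the 12 largest called changes in each direction at 5 CPM or more and up to 2 further calls per role group by smallest adjusted p. Also named are up to 6 of the largest iPS differences each way, at an unadjusted p under 0.05 and 5 CPM or more. The rest are a list of well-known carriers, the 6 most variable between ES lines at 5 CPM or more and the 5 highest per length. Others named, among them remaining called members, were chosen after their values were seen. Members and lists were chosen with earlier results of these data known. A few genes that the naming rule covers are not reported here.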

Additional observations from a re-analysis of the deposited data

How the results depend on the processing

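No paired analysis was possible because the labels give the fibroblast, iPS and ES libraries no shared replicate numbers. Of the 59 carriers called between the fibroblast library and the ES lines, 20 passed in every one of 11 alternative fits, and none changed direction. The main counts were 26 higher and 33 lower. Leaving out 1 ES line gave 10 to 35 higher and 12 to 58 lower, and all 59 calls were kept without ES line 3 against 22 without ES line 1, which also changes the number of lines that give the error. Total counts alone gave 17 higher where 6.1% of all genes were higher. DESeq2 gave 66 lower where 15.3% of all genes were, and limma voom 19 lower where 5.78% were, beside 8.8% higher and 9.28% lower of all genes in the main analysis; the cause was not tested. The median log2 fold change of the carriers, -0.17, was -0.43 with upper-quartile factors and -0.56 with total counts alone, where the median of all genes moved by -0.26 and -0.38. It ranged from -0.14 to -0.027 when 1 ES line was left out. For iPS cells against the ES lines the counts were 0 higher and 0 lower, and DESeq2 gave 2 higher and 1 lower. The iPS library's depth, where 3 counts make 0.507 CPM, limits what can be seen of low carriers. Counting only carriers without exon overlap, or leaving out the 3 genes that are not carriers, was added after seeing the data. Both recount the calls of the main fit and test nothing about shared reads. Leaving out 3 genes could not move either fibroblast count past 1.5 times. The counts without exon overlap stayed within 1.5 times.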
